A study of Mus musculus with 2 samples.

Results

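The cholangiocytes of mouse livers with metabolic dysfunction-associated steatohepatitis (MASH) were read from 693 of 20081 single nuclei, 143 in the library labelled Flox and 550 in the library labelled HKO. Each nucleus was profiled by droplet single-nucleus RNA-seq, in which every captured RNA molecule is counted once as a unique molecular identifier (UMI). A nucleus was taken as a cholangiocyte when it had at least 300 detected genes, at most 6000 UMIs and at least 3 UMIs of Pkhd1, Fgfr3, Rassf9, Kcnma1, Scara3 and Nipal2 together. It could also hold no more than 1 UMI, in all, of 7 genes of other liver cells. These were Reln and Dcn of hepatic stellate cells (HSCs), Ptprb and Clec4g of endothelium, Ms4a7 and Clec4f of macrophages, and Bcl11b of T cells. Since the members were picked on their own counts, their marker levels describe the choice and were not tested.

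Both libraries were made from liver of male C57BL6/J mice kept for 5 months, from an age of 10 to 12 weeks, on a MASH diet in which cholesterol made up 2%, fructose 20 kcal% and fat 40 kcal%. Flox mice were Themis flox/flox and served as controls, and HKO mice are labelled Themis Alb-Cre, with Cre recombinase driven by the albumin promoter of hepatocytes. The study describes the deletion of Themis, a T cell signaling adaptor, as specific to hepatocytes. The label itself names no cell type, and whether cholangiocytes also carried the deletion was not tested. Frozen liver of several mice was pooled per genotype and sorted nuclei gave 1 library each, so genotype and library cannot be told apart, no test between genotypes was possible, and all intervals are exact 95% intervals for counting error only.

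Cholangiocytes line the bile ducts. They alkalinize and dilute bile by secreting chloride, bicarbonate and water in response to secretin, sense bile flow with a primary cilium that carries the polycystins and fibrocystin (the Pkhd1 product), and hold their identity through SOX9, ONECUT1 and Notch signals. In chronic liver injury the ducts can expand in a ductular reaction, with release of osteopontin (the Spp1 product), chemokines and growth factors.

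The members expressed the bile duct program in both libraries. Levels are given as CPM, the UMIs of a gene per 1000000 UMIs, both summed over the members of 1 library. Spp1 (chr5:104435118-104441050, plus strand, GRCm38) was at 11453 CPM in Flox and 4731 CPM in HKO cholangiocytes, compared with 9.96 and 21.04 CPM in hepatocytes of the same libraries. Clu (chr14:65968483-65981547), which encodes the secreted chaperone clusterin, was at 4666 and 1568 CPM compared with 120 and 92.7 CPM in hepatocytes. Of the genes used in the rule, Pkhd1 (chr1:20057779-20618064, minus strand) was at 1062 and 1109 CPM, Fgfr3 (chr5:33721674-33737068), a receptor of fibroblast growth factors, at 1015 and 1139 CPM, and Rassf9 (chr10:102512222-102549736) at 360 and 187 CPM. Pkhd1 and Fgfr3 carried the rule in both libraries: at least 1 UMI of Pkhd1 was present in 83.2% of Flox and 85.8% of HKO members, whereas Rassf9 was present in 45.5% and 25.6%. Each of the 5 genes was at most at 120 CPM in hepatocytes, HSCs, endothelial cells, macrophages and T cells of either library. For Pkhd1, Fgfr3 and Rassf9 this was limited by the choice of those nuclei. Each of them could hold at most 1 UMI of the genes of the rule together. The levels of these genes in the other cell types therefore describe the choice and cannot show specificity. Spp1 and Clu were not limited directly, but nuclei with more UMIs of the rule genes were left out of the other types. Their levels there may thus depend in part on the choice. Spp1 had a mean of 0.145 UMIs in Flox and 0.248 in HKO over all other nuclei, and of 0.078 and 0.135 in hepatocytes.

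After the genes of the rule, the 15 genes with the highest ratio of members to all other nuclei, taken in the library where the ratio was lower, were Spp1, Gm609, Epcam, A230001M10Rik, Ehf, Cttnbp2, Sema3c, Adam33, Dcdc2a, Gm15271, Bicc1, Cd200, Prom1, Cdh6 and Kif12. Epcam, the epithelial adhesion molecule, was at 666 CPM in Flox and 244 CPM in HKO members and at 1.23 and 2.67 CPM in all other nuclei. Ehf, an epithelial transcription factor of the ETS family, was at 127 and 151 CPM in members compared with 0.156 and 1.42 CPM in all other nuclei. Bicc1, an RNA-binding protein of the cystic kidney and bile duct program, was at 639 and 633 CPM, and HSCs were the other cell type with Bicc1, at 184 and 260 CPM. Cytokeratins were weak in these nuclei: Krt19 had 3 and 12 UMIs and Krt7 had 5 and 33 UMIs over all members, and Krt7 was the 1 marker past 1.5-fold higher.

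**Figure D1:**
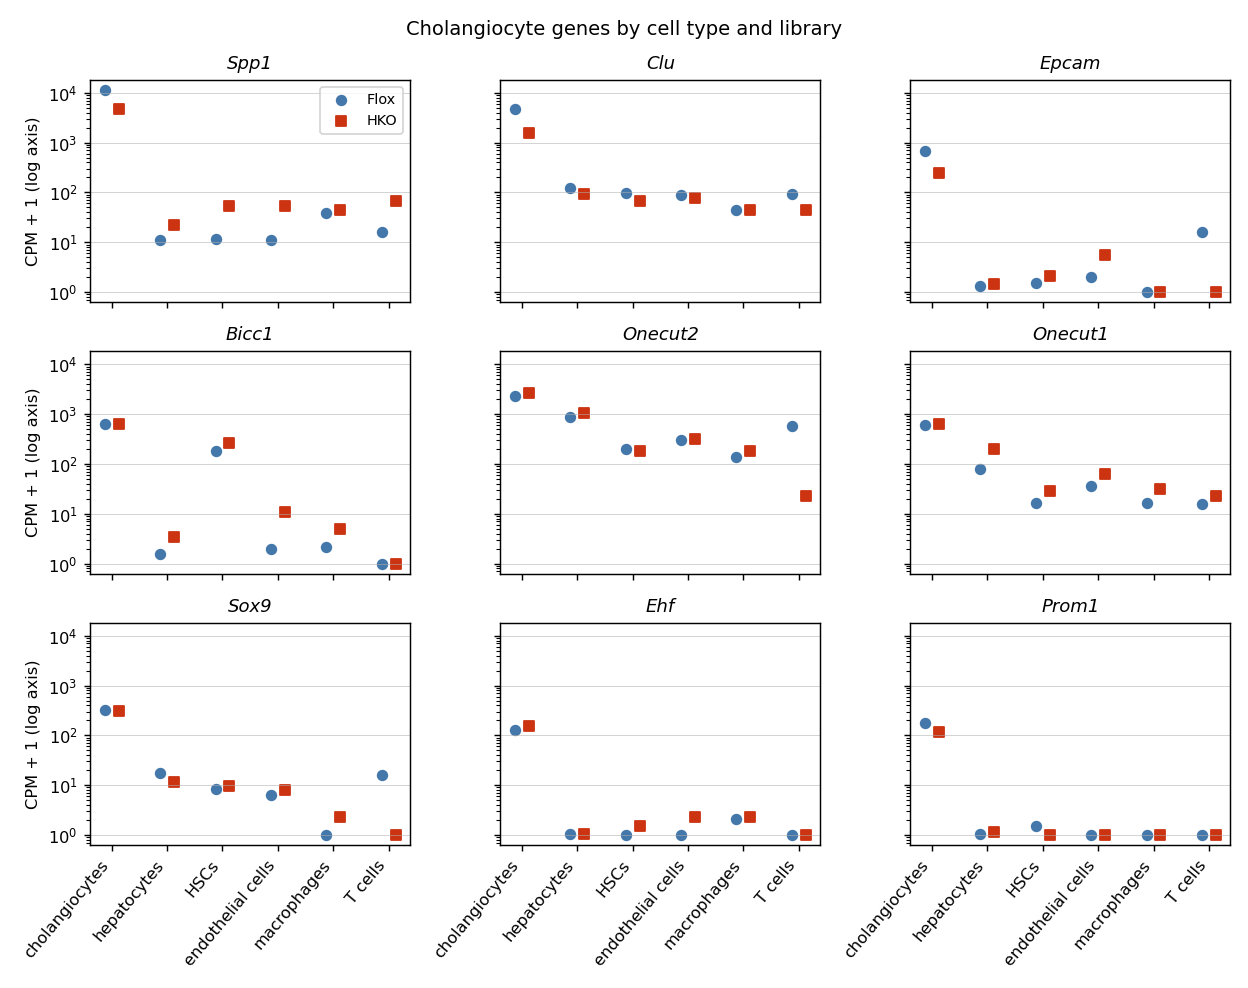
Level of 9 cholangiocyte genes as CPM plus 1 on a log axis (y) in cholangiocytes and 5 other cell types chosen by marker counts (x), with Flox as circles and HKO as squares. Spp1 and Clu were at 11453 and 4666 CPM in Flox members and at 4731 and 1568 CPM in HKO members, and Bicc1 was also present in HSCs; T cells hold only 32 and 50 nuclei, so their points rest on few counts.

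The members were shallow nuclei. Their median depth was 1880 UMIs and 1058 genes in Flox and 1512 UMIs and 881.5 genes in HKO, their summed depth 300445 and 1076203 UMIs, and 3 UMIs in a sum correspond to 9.98 and 2.79 CPM. Hepatocytes were deeper, with medians of 7411 and 6053 UMIs. Mitochondrial reads were 0.641% and 0.659% of UMIs in the members and Malat1, a nuclear long noncoding RNA, 23.3% and 23.4%, so these measures differed little between the libraries. The libraries shared 27 barcodes, and no barcode belonged to a member in both.

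Some members were hepatocyte-like by their counts. At least 10 UMIs of 7 hepatocyte genes (Cps1, Acsl1, Ghr, Abcb11, Slc10a1, Cyp7b1 and Mug1) were found in 11 of 143 Flox members (7.69%, interval 3.902 to 13.4%) and in 53 of 550 HKO members (9.64%, interval 7.30 to 12.4%). These nuclei were deep (medians 4657 and 5005 UMIs) and held a mean of 1 and 1.13 UMIs of Spp1, whereas the remaining 132 and 497 members held 26.0 and 10.1. The 7 genes summed to 5299 and 4358 CPM in them, 6684 and 5114 CPM in hepatocytes and 361.3 and 387.5 CPM in the remaining members. In these genes and in Spp1 they were closer to hepatocytes, but they met the rule and are counted as cholangiocytes in the main values. Values for these remaining members, called hepatocyte-poor here, are given beside the main results. At the edge of the rule, nuclei with exactly 3 UMIs of the 6 genes (17 in Flox, 129 in HKO) had Spp1 at 2502 and 1787 CPM, and those with 2 UMIs, just outside, had it at 105 and 386 CPM. Among nuclei with exactly 5 UMIs, 21 and 87 in number, Spp1 stood at 11707 and 6122 CPM, with none rich in hepatocyte RNA.

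Cholangiocytes made up a larger share of nuclei in the library labelled HKO. They were 143 of 9360 nuclei in Flox (1.53%, interval 1.29 to 1.80%) and 550 of 10721 in HKO (5.13%, interval 4.72 to 5.57%), a ratio of 3.36 (interval 2.79 to 4.07). Hepatocytes made up a smaller share in HKO, 31.8% compared with 54.9% in Flox, so the share was also taken among the nuclei that were not hepatocytes. There it was 3.39% in Flox and 7.52% in HKO, a ratio of 2.22 (interval 1.84 to 2.69). HSCs (ratio 1.03), endothelial cells (1.01), macrophages (1.19) and T cells (1.36, interval 0.858 to 2.20) were in closer proportion, each as a share of all nuclei. The upper limit of 6000 UMIs mattered for the ratio: without it 377 Flox and 739 HKO nuclei passed and the ratio was 1.71 for all nuclei and 1.13 for non-hepatocyte nuclei. When the limit was dropped and hepatocyte-rich nuclei were left out together, 132 and 505 nuclei passed and the ratios were 3.34 and 2.21. More duct cells and fewer recovered nuclei of other types cannot be told apart in such a share.

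Gene levels were then compared between HKO and Flox members. Of 7209 genes with at least 30 UMIs over both libraries, 987 (13.7%) were at least 1.5-fold higher and 882 (12.2%) at least 1.5-fold lower in HKO on a scale of CPM plus 5, with a median log2 ratio of 0.01 over all of them. Together these were 25.9% of the genes. With weighted trimmed mean of M-values (TMM) scaling in place of total UMIs the split was 1171 higher and 694 lower. These counts are the background against which each gene group below is read, and in single libraries they describe the libraries and not the genotypes. Many of the lower genes named below, among them Cdh1, Dsg2, Col4a1, Fgfr1 and H2-K1, were on the other side of 1 when nuclei above 6000 UMIs were admitted, and not when hepatocyte-rich nuclei were left out as well.

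Several surface and secreted products of bile duct cells, Spp1, Clu and Epcam among them, were lower in HKO members. Of 18 cholangiocyte markers with at least 20 UMIs, 8 were at least 1.5-fold lower, 9 within 1.5-fold and 1 higher (12.2% and 13.7% over all genes), with a median log2 ratio of -0.51, or -0.46 in hepatocyte-poor members. Spp1 was 2.42-fold lower in HKO (interval 2.32 to 2.53), from 3441 UMIs in Flox and 5091 UMIs in HKO. Clu was 2.98-fold lower, from 1402 and 1687 UMIs, and Epcam 2.72-fold lower, from 200 and 263 UMIs. In hepatocyte-poor members the log2 ratios of Spp1, Clu and Epcam were -1.17, -1.48 and -1.30, close to -1.27, -1.57 and -1.43 in all members. Tspan8, a tetraspanin, was at 206 and 100 CPM, Prom1, the stem and progenitor surface protein prominin, at 180 and 114 CPM, and Sctr, the secretin receptor, at 56.6 and 28.8 CPM from 17 and 31 UMIs.

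The lower levels of Spp1 and Clu ran through most nuclei and did not come from a few. The median Flox member held 21 UMIs of Spp1 and the middle 50% of nuclei 14 to 31, whereas the median HKO member held 8 and the middle 50% 3 to 13. Per 1000 UMIs of each nucleus, the median was 11.3 in Flox and 5.46 in HKO for Spp1, and 4.17 and 1.52 for Clu. The ranges overlapped, with maxima of 41.4 and 27.4 for Spp1 per 1000 UMIs. After each nucleus was thinned to 500 UMIs, Spp1 was detected in 90.9% of Flox and 78.0% of HKO members (94.4% and 86.7% before thinning), and in 0.604% and 0.968% of hepatocytes and 0.364% and 3.15% of endothelial cells, taken as background. Clu was detected in 79.0% and 52.4% of thinned members (95.8% and 79.1% before), and Onecut2, a bile duct transcription factor, in 64.3% and 70.4% (93.7% and 94.9% before). Without the upper limit on UMIs the log2 ratio of Spp1 was 0.51 in place of -1.27, and with hepatocyte-rich nuclei left out as well it was -1.28. The same holds in kind for Clu (0.05) and Epcam (0.35) without the limit.

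**Figure D2:**
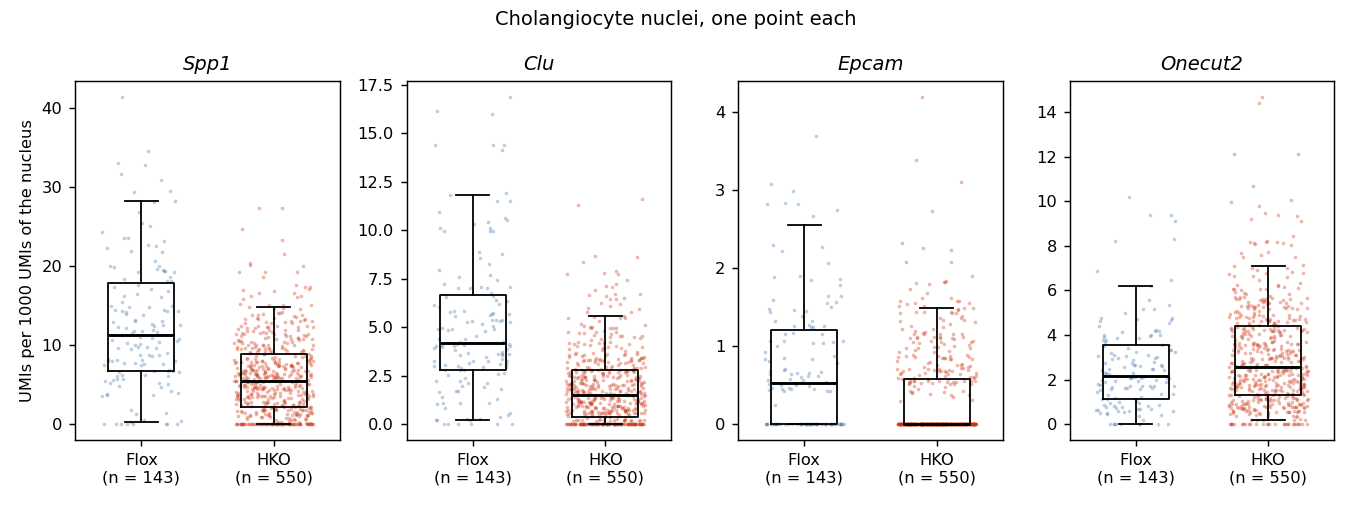
UMIs of Spp1, Clu, Epcam and Onecut2 per 1000 UMIs of the nucleus (y) in each of the 143 Flox and 550 HKO cholangiocyte nuclei (x). Each point is a nucleus, boxes span the quartiles with the median as a line, and whiskers reach the 5th and 95th percentiles; the Spp1 median was 11.3 in Flox and 5.46 in HKO, and that of Onecut2 2.17 and 2.57.

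The transcription factors of the duct lineage were at similar levels in both libraries. Of 18 measured, 1 was past 1.5-fold in each direction, and the median log2 ratio was 0.00. The share over all genes, for this and the next groups, was 13.7% higher and 12.2% lower. Onecut2 was at 2350 CPM in Flox and 2592 CPM in HKO (ratio 1.10, interval 1.01 to 1.20). Onecut1, a factor of duct development, was at 606 and 626 CPM (ratio 1.03, interval 0.876 to 1.23), and Sox9 at 320 and 310 CPM (ratio 0.971, interval 0.772 to 1.23). Glis3, a zinc finger factor with a role in bile duct and cilium biology, was the lower one, at 143 and 87.3 CPM, and Grhl2, an epithelial factor, was at 79.9 and 60.4 CPM. At the upper end were Tead1, the DNA-binding partner of YAP, at 300 and 365 CPM, Klf6 at 76.6 and 107 CPM, and Tbx3 with 7 and 47 UMIs and a log2 ratio of 0.78, or -0.28 in hepatocyte-poor members. Cilium genes were near the same level or somewhat lower, with 2 of 17 past 1.5-fold lower and none higher: the polycystin Pkd2 was at 270 and 255 CPM, and the intraflagellar transport gene Ift88 at 99.8 and 53.9 CPM. Of 7 Notch pathway genes, 1 was higher and none lower. The ligand Jag1 was at 143 and 179 CPM, its target Hes1 at 113 and 127 CPM, and Rbpj, the DNA-binding partner of Notch, at 53.2 and 90.1 CPM from 16 and 97 UMIs. The receptors Notch1 and Notch2 were at 33.3 and 40.0 CPM and at 120 and 83.6 CPM, and the coactivators Maml2 and Maml3 at 23.3 and 21.4 CPM and at 210 and 156 CPM. Of 17 Hippo pathway genes, 2 were higher and 1 lower, and the classical YAP targets Ccn1 and Ccn2 were at 46.6 and 57.6 CPM and at 69.9 and 77.1 CPM. Yap1 itself was at 76.6 and 104 CPM, and its partner Wwtr1 (TAZ) was the lower one, from 14 and 31 UMIs.

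Junction, adhesion and matrix genes had more lower than higher members. Of 18 keratin and junction genes, 7 were lower and 2 higher, and of 18 integrin and basement membrane genes, 9 were lower and 2 higher, where 12.2% of all genes were lower. The claudin Cldn3 was at 196 and 79.0 CPM, E-cadherin (Cdh1) at 320 and 186 CPM, and the desmosomal cadherin Dsg2 at 1032 and 585 CPM. Itgb1, the common beta chain of laminin and collagen receptors, was at 216 and 80.8 CPM, with log2 ratios of -1.37 in all and in hepatocyte-poor members. The basement membrane collagen Col4a1 was at 79.9 and 28.8 CPM. Itgb6, which pairs with the alpha V chain to activate latent TGF-beta, was among those higher, at 13.3 and 40.0 CPM from 4 and 43 UMIs (ratio 3.001, interval 1.09 to 11.5).

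Among genes of secretion, Atp1b1, the beta subunit of the sodium pump, was at 586 CPM in Flox and 376 CPM in HKO members. Cftr, the chloride channel of the apical membrane, was at 96.5 and 67.8 CPM (ratio 0.703, interval 0.451 to 1.12), and the anion exchanger Slc4a2 at 86.5 and 90.1 CPM. The bicarbonate cotransporter Slc4a4 was at 123 and 185 CPM. Of 14 ion and water transport genes, 3 were lower and none higher (12.2% and 13.7% over all genes), among them the potassium channel Kcnq1 with 12 and 8 UMIs. The bile acid uptake carrier Slc10a2 had only 10 and 59 UMIs. Iron exporter Slc40a1 (ferroportin) was at 130 and 227 CPM, a ratio of 1.75 (interval 1.24 to 2.52), and the glucose carrier Slc5a1 at 136 and 90.1 CPM. Abcc2, a canalicular pump of hepatocytes, was at 270 and 848 CPM in all members and at 32.1 and 361 CPM in hepatocyte-poor ones, with 1774 and 2418 CPM in hepatocytes. The part of hepatocyte RNA in the Abcc2 values was not tested. The drug efflux pumps Abcb1a and Abcc1 were lower, at 73.2 and 31.6 CPM and at 53.2 and 23.2 CPM, while the vitamin C carrier Slc23a1 had 9 and 74 UMIs.

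Receptors for hormones and bile acids were few, and 3 of 7 were higher and 1 lower, or 1 and 1 of 5 in hepatocyte-poor members. Over all genes, 13.7% were higher and 12.2% lower, or 14.5% and 12.4% in hepatocyte-poor members, and the groups in this paragraph are read against these shares. The lower receptor was Sctr, named above. The higher ones were the bile acid receptor Nr1h4 (FXR) at 39.9 and 66.0 CPM, the adrenergic receptor Adra1b at 36.6 and 61.3 CPM, and the estrogen receptor Esr1 with 2 and 28 UMIs. The insulin receptor Insr was at 266 and 313 CPM, the purinergic channel P2rx4 at 93.2 and 141 CPM, and the muscarinic receptor Chrm3 at 63.2 and 58.5 CPM. Of 14 Wnt and BMP genes, 2 were lower and none higher. These were the R-spondin receptor Lgr4 at 69.9 and 33.4 CPM and the BMP receptor Bmpr1a at 123 and 76.2 CPM. Of 10 genes of the p53 response and senescence, 3 were higher and none lower (1 and none of 6 in hepatocyte-poor members), among them Mdm2, the ubiquitin ligase of p53, at 76.6 and 128 CPM and the stress cytokine Gdf15 with 5 and 33 UMIs. The log2 ratio of Gdf15 was 0.72 and turned to between -1.21 and -0.31 under 3 other choices of nuclei.

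Growth factor receptors and ligands were on different sides. Fgfr1 was at 333 CPM in Flox and 153 CPM in HKO members, Fgfr2 at 180 and 104 CPM and the hepatocyte growth factor receptor Met at 146 and 96.6 CPM, all at the lower level in HKO, with Met short of 1.5-fold. Egfr was at 170 and 58.5 CPM in members, and hepatocytes moved in the same direction, from 347 to 88.2 CPM. Among ligands, the neuregulin Nrg1 was at 49.9 and 100 CPM (ratio 2.01, interval 1.17 to 3.71) and Vegfa at 988 and 898 CPM. Hbegf, an EGF receptor ligand, had 6 and 48 UMIs, with an interval of the ratio from 0.954 to 6.39. Erbb2, a coreceptor for neuregulins, had 3 and 21 UMIs.

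Of 9 targets of the ERK kinase cascade with at least 20 UMIs, 3 were at least 1.5-fold higher in HKO and none lower, with 13.7% of all genes higher. Dusp6 and Egr1, both among the 3, had only 4 and 2 UMIs in Flox and reached the limit of 20 UMIs through HKO. Ccnd1 (cyclin D1) was at 166 and 266 CPM (ratio 1.597, interval 1.18 to 2.20). Dusp6, a phosphatase that dampens ERK, was at 13.3 and 50.2 CPM from 4 and 54 UMIs (ratio 3.77, interval 1.39 to 14.3), and in hepatocytes at 58.5 and 108 CPM. Egr1 had 2 and 28 UMIs (ratio 3.91, interval 0.986 to 33.9). The feedback genes Spred1 and Spry2 were not among the higher ones, at 113 and 81.8 CPM and at 23.3 and 21.4 CPM. Of the rest, Spred2 and Etv4 had log2 ratios of 0.23 and 0.44, and Ier3 and Phlda1 of -0.05 and -0.11.

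Genes of lipid and cholesterol synthesis included more higher than lower ones. Of 21, 10 were higher and 2 lower (6 and 2 of 19 in hepatocyte-poor members), with a median log2 ratio of 0.53, or 0.39 in hepatocyte-poor members. Among all genes, 13.7% were higher and 12.2% lower. The fatty acid desaturase Scd1 was at 230 CPM in Flox and 441 CPM in HKO members (ratio 1.92, interval 1.49 to 2.51). Insig1, which retains the sterol sensor in the endoplasmic reticulum, was at 29.96 and 86.4 CPM and the elongase Elovl5 at 23.3 and 55.7 CPM. Hepatocytes of the HKO library were also higher in each of these 3 genes, for example Scd1 at 588 compared with 321 CPM. The median log2 ratio of the list was 0.49 in hepatocytes, 0.05 in HSCs, 0.45 in endothelial cells and 0.33 in macrophages. Whether cholangiocytes differ from these types was not tested. Sqle, the squalene epoxidase of cholesterol synthesis, was on the other side at 56.6 and 23.2 CPM. Acacb, the mitochondrial acetyl-CoA carboxylase, was not detected in Flox members and had 23 UMIs in HKO, so it passed the limit on UMIs through HKO alone. With the Flox sum set to the floor of 3 UMIs the ratio was 2.14, which is not a lower limit of the ratio.

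**Figure D3:**
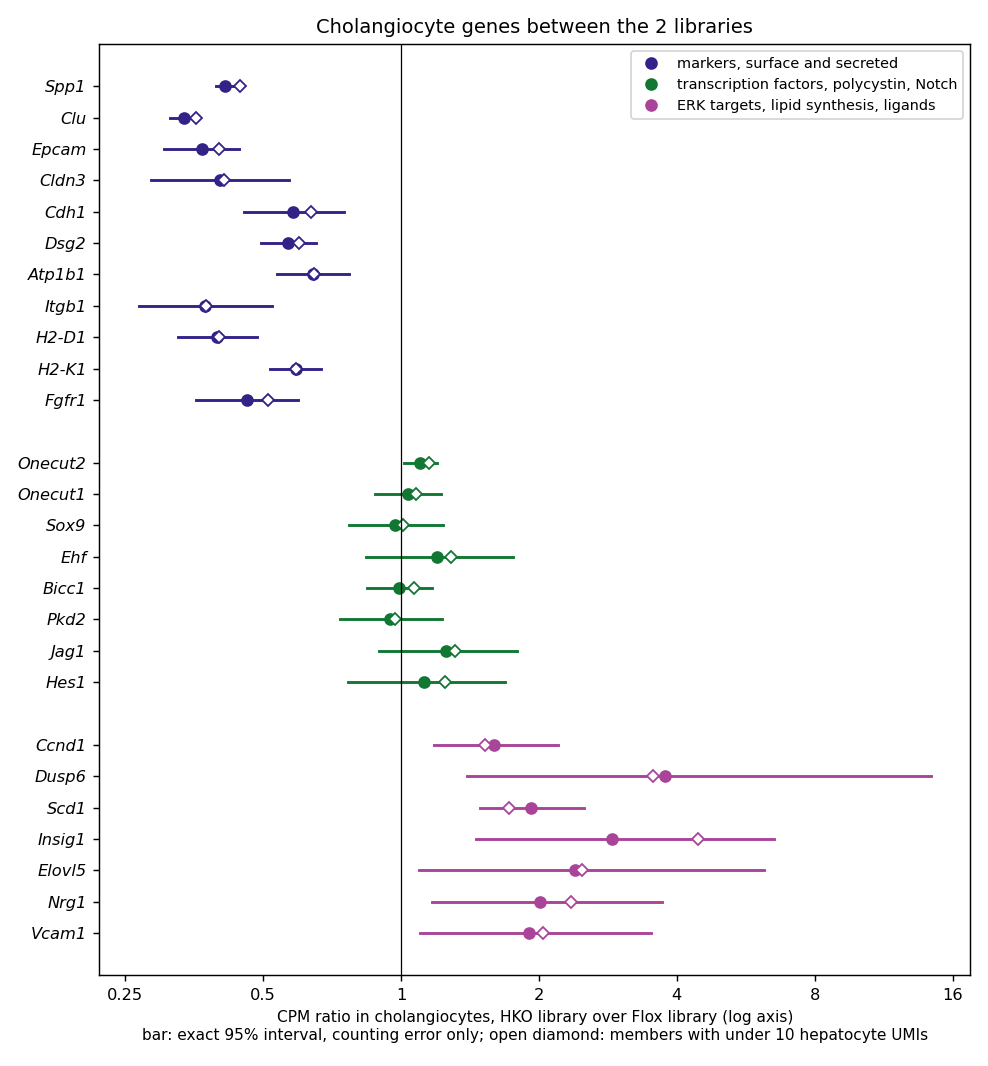
CPM ratio of HKO to Flox cholangiocytes on a log axis (x) for 26 named genes (y) in 3 groups. Filled points are all members with exact 95% intervals for counting error and open diamonds the hepatocyte-poor members; the 11 marker, surface and secreted genes drawn lie between 0.336 and 0.642, the transcription factors and polycystin drawn near 1, and Dusp6 at 3.77. The genes drawn are a choice from those named in the text. Of 18 cholangiocyte markers 9 were within 1.5-fold and 1 higher, and the higher Itgb6 and Krt7 and the lower Glis3 are not drawn.

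Of the signals of a ductular reaction, Spp1 was the strongest and the chemokines were scarce. Among 14 such genes, 7 were lower and 2 higher, or 4 and 3 in hepatocyte-poor members, with a median log2 ratio of -0.55, or -0.32 in hepatocyte-poor members. The shares over all genes were 12.2% lower and 13.7% higher, or 12.4% and 14.5% in hepatocyte-poor members. Lcn2, an iron-binding acute phase protein, was at 86.5 CPM in Flox and 41.8 CPM in HKO, and Tgfb2 at 96.5 and 62.3 CPM. Vcam1, a leukocyte adhesion molecule, was at 49.9 and 94.8 CPM (ratio 1.90, interval 1.10 to 3.52). Ccl2, a monocyte chemokine, had no UMI in Flox and 20 UMIs in HKO, so it also passed the limit through HKO alone. With the Flox sum set to the floor of 3 UMIs the ratio was 1.86, which is not a lower limit of the ratio. Cxcl1 turned with the choice of nuclei: it was at 173 and 68.8 CPM in all members, and in hepatocyte-poor members it had 3 and 49 UMIs, 12.0 and 59.7 CPM. Hepatocytes held Cxcl1 at 574 and 106 CPM.

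The class I heavy chain genes H2-D1 and H2-K1 were lower. H2-D1 was at 576 CPM in Flox and 229 CPM in HKO members (ratio 0.397, interval 0.326 to 0.485) and H2-K1 at 1185 and 698 CPM (ratio 0.589, interval 0.518 to 0.670), while in hepatocytes H2-K1 was at 413 and 406 CPM. The light chain gene B2m was within 1.5-fold, at 310 and 262 CPM. Class II genes were at the low end, with H2-Aa at 20.0 and 37.2 CPM. Over 14 antigen presentation genes 4 were lower and 2 higher (3 and 2 of 13 in hepatocyte-poor members), and over 10 interferon-stimulated genes 1 was lower (Ifit1, 8 and 12 UMIs) and 1 higher (Ifit2, 3 and 21 UMIs). Ifit2 reached the limit of 20 UMIs through HKO. For comparison, 12.2% of all genes were lower and 13.7% higher.

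Most genes of a group for protein folding in the endoplasmic reticulum (ER) were lower in HKO cholangiocytes. This group of 12 was assembled after Hspa5 and Pdia6 had been seen among the lowest genes, so its direction is a description. Of the 12, 10 were at least 1.5-fold lower and none higher, or 9 and none in hepatocyte-poor members. Over all genes 12.2% were lower and 13.7% higher, or 12.4% and 14.5% in hepatocyte-poor members. The median log2 ratio of the 12 was -1.003, or -1.08 in hepatocyte-poor members. Hspa5, the ER chaperone BiP, was at 556 CPM in Flox and 165 CPM in HKO (ratio 0.298, interval 0.240 to 0.370). Hsp90b1, a chaperone of integrins and secreted proteins, was at 812 and 383 CPM, and the lectin chaperone Calr at 246 and 107 CPM. The disulfide isomerases Pdia3 and Pdia6 were at 389 and 147 CPM and at 186 and 61.3 CPM, and the translocon gene Sec61a1 at 53.2 and 54.8 CPM. The summed level of the 12 genes was 3129 and 1396 CPM in cholangiocytes. It was 1796 and 1200 CPM in hepatocytes, 2840 and 1721 CPM in HSCs, 2371 and 2000 CPM in endothelial cells and 2812 and 1893 CPM in macrophages, so all 5 types had the lower sum in HKO. Their median log2 ratios were -0.75, -0.65, -0.28 and -0.53 in the order hepatocytes, HSCs, endothelial cells and macrophages, and whether cholangiocytes differ from them was not tested.

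**Figure D4:**
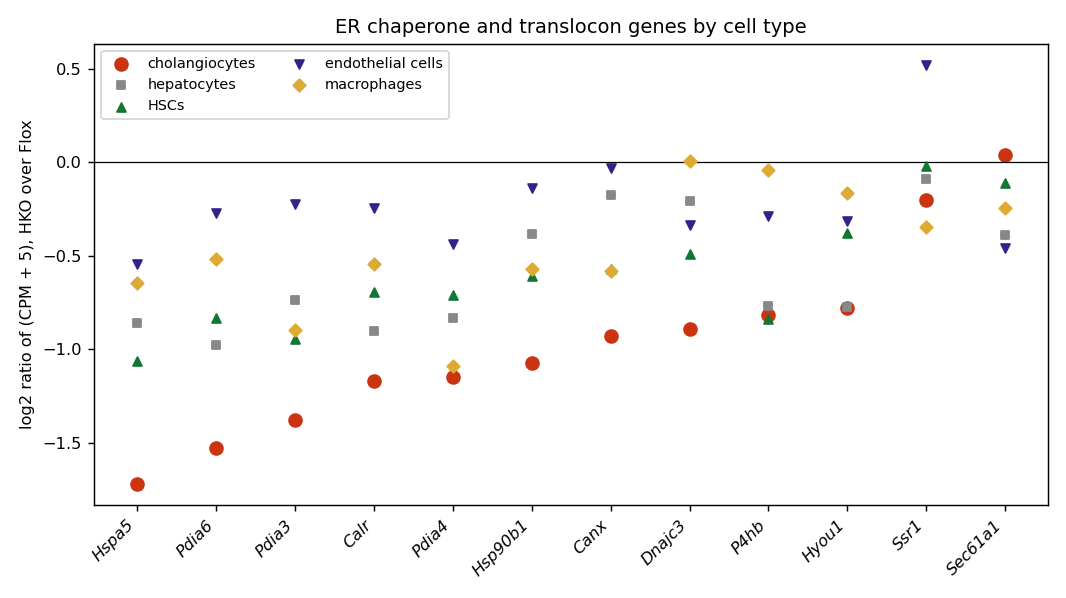
Log2 ratio of CPM plus 5, HKO over Flox (y), of the 12 ER chaperone and translocon genes (x) in cholangiocytes and 4 other cell types. Cholangiocytes (large circles) run from -1.72 for Hspa5 to 0.04 for Sec61a1, with 11 of 12 below 0.

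Promoters are shown for Hspa5 and Pdia6, the lowest of this group, with an element known from genes of the ER stress response. The ER stress response element, the letters CCAAT and CCACG separated by any 9 bases, read on both strands of the 250 bases before and 50 after each start site in RefSeq (GRCm38.p6), was present in 39 of 32851 mouse promoters (0.119%) and in 6 of the 10 ER genes with a promoter entry: Hspa5, Calr, Hsp90b1, Canx, Pdia6 and Dnajc3. Below, the 250 bases before the start site are printed 5′ to 3′ in the sense of the gene, with the match in capitals, for chr2:34771840-34772089 (Hspa5) and chr12:17266339-17266588 (Pdia6), both on the plus strand.
Hspa5: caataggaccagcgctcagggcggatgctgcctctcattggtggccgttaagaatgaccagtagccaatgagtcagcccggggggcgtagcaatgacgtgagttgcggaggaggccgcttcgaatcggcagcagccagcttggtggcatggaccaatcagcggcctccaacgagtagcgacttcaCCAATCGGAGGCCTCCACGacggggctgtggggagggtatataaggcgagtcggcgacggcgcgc
Pdia6: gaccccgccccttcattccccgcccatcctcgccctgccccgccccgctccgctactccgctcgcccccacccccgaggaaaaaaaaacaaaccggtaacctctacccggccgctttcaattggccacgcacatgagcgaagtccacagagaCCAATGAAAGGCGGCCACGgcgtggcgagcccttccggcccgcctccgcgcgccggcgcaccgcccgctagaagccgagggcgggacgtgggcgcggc
The matches lie from -65 to -47 in Hspa5 and from -98 to -80 in Pdia6, counted from the start site. Canx was at 313 and 162 CPM and Dnajc3 at 166 and 87.3 CPM. As the genes were chosen by their level, the 6 of 10 is no evidence of enrichment. No binding was measured in these samples, and a match describes the letters only.

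The genes with the lowest ratios, among those at least as high in cholangiocytes as in hepatocytes of the library with the higher level, were Msmp, Ptprm, Lage3, Qpct, Hspa5, Asap2, Isca2, Hmgn2, Clu, Tspyl1, Pdia6 and Lynx1. Msmp, a secreted microseminoprotein, had 22 UMIs in Flox and 11 in HKO, or 73.2 and 10.2 CPM. Ptprm, a homophilic receptor phosphatase of cell contacts, had 20 and 13 UMIs, or 66.6 and 12.1 CPM, and Qpct, which forms pyroglutamate on secreted peptides, 32 and 31 UMIs. At the other end stood Zeb2, Il1rn, Prmt3, Syt11, Cish, Adgrl3, Gm38393, Myo9a, Rhpn2, Mvp, A830082N09Rik and Tspoap1. All 12 had 1 to 4 UMIs in Flox members. Cish, a feedback inhibitor of cytokine receptors that signal through STAT5, had 4 UMIs in Flox and 78 in HKO (ratio 5.44, interval 2.04 to 20.5) and was at 11.9 and 56.0 CPM in hepatocytes. Il1rn, the interleukin-1 receptor antagonist, had 1 and 39 UMIs (ratio 10.9, interval 1.84 to 441), and Mvp, the major vault protein, 4 and 66 UMIs (ratio 4.61, interval 1.72 to 17.4). Zeb2 had 1 and 76 UMIs and was at 3222 CPM in macrophages and 2524 CPM in HSCs of the HKO library. Among genes that hepatocytes held at higher levels, the extremes included Rgs16, Cyp2c38, Rdh16 and Cyp2a22, higher in HKO, and Serpina1e, Selenbp2, Saa1, Sult2a8 and Gm50136, lower. Serpina1e was at 250 and 4.65 CPM in members and at 319 and 7.70 CPM in hepatocytes. The nuclear RNA Neat1 was at 1591 and 3412 CPM (ratio 2.15, interval 1.95 to 2.36), with 3812 and 5727 CPM in hepatocytes.

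Markers of other non-parenchymal cells were low in the members, whereas hepatocyte RNA was not. This contrast was in part set by the rule, which limited Reln, Dcn, Ptprb, Clec4g, Ms4a7 and Clec4f of these marker lists. No hepatocyte gene was limited by it. The summed level of 8 HSC markers was 43.3 CPM in Flox and 42.7 CPM in HKO, of 8 endothelial markers 29.96 and 43.7 CPM and of 9 macrophage markers 106 and 178 CPM, of which Csf1r made up 76.6 and 108 CPM. The defining macrophage markers Timd4 and Adgre1 had at most 3 UMIs in either library. At least 2 UMIs of Ptprc, Zeb2, Cd5l and Mpeg1, genes of leukocytes chosen after their values were seen, were found in 1 Flox member (0.699%) and 24 HKO members (4.36%). The summed level of 16 secreted and metabolic hepatocyte genes was 10924 and 7454 CPM in members, 8265 and 5051 CPM in hepatocyte-poor members and 18300 and 12250 CPM in hepatocytes. Themis had 2 and 44 UMIs in cholangiocytes and was at 165 CPM in Flox and 258 CPM in HKO hepatocytes. This goes against the label of HKO, and the deleted part of the gene is not given in the sources used here, so all directions above are between the libraries as labelled.

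Nuclei within a library differed most in Malat1, Gm29966, Spp1, Mup20, Pck1, mt-Co3, Car3, Errfi1, Neat1 and mt-Atp6, ranked by the variance of UMIs over that expected from counting at each depth. Spp1 varied 14.7-fold over counting in Flox and 9.89-fold in HKO, and 8.92-fold and 6.16-fold in hepatocyte-poor members, compared with medians of 1.11 and 1.12 over 5703 genes. Gm29966, Pck1, Car3, Errfi1 and Neat1 were each higher in hepatocytes than in members, and once hepatocyte-rich nuclei were left out their excess was between 1.09 and 1.82 in Flox but between 3.59 (Errfi1) and 10.3 (Neat1) in HKO. Spp1, the mitochondrial transcripts mt-Co3 and mt-Atp6 and Malat1 kept an excess above 5 in both libraries. Malat1 itself was at 233118 and 234225 CPM, so its spread lay between nuclei of a library and not between the libraries.

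A minority of hepatocyte-poor members held Anxa3, Cd44 or Ltbp2, which encode an annexin, a hyaluronan receptor and a TGF-beta binding matrix protein. The 3 genes and the genes named here were picked after the nuclei had been grouped by their own expression, so the differences are a description of how nuclei vary. At least 1 UMI was present in 27 of 132 Flox members (20.5%, interval 13.9 to 28.4%) and 110 of 497 HKO members (22.1%, interval 18.6 to 26.0%). After thinning to 500 UMIs the shares were 5.30% and 9.26%. In HKO, 11 of the 110 nuclei with the 3 genes and 11 of the 387 without held 2 or more leukocyte UMIs, their summed cell cycle UMIs were 90 and 69, and their median depths 1720 and 1391 UMIs. In Flox these were 1 of 27 and 0 of 105 nuclei, 1 and 48 UMIs, and 1919 and 1835 UMIs. The part of leukocyte RNA, cycling and depth in the differences below was not tested. Top2a had 29 UMIs with and 5 without the 3 genes in HKO and 0 and 5 in Flox, and the macrophage growth factor Csf1 had 18 and 13 UMIs in HKO and 0 and 8 in Flox, so the libraries did not share these directions. In nuclei with the 3 genes compared with those without, Ccn2 (connective tissue growth factor) was at 173 compared with 60.9 CPM in Flox and at 190 compared with 68.8 CPM in HKO. Tgfb2 was at 250 compared with 81.2 CPM in Flox and at 143 compared with 60.6 CPM in HKO. Cxcl16, a membrane-bound chemokine, was at 105 compared with 19.7 CPM in HKO (ratio 5.32, interval 2.52 to 11.8), with only 4 UMIs on each side in Flox. Spp1 was lower in them, at 11131 compared with 14467 CPM in Flox and at 4662 compared with 6637 CPM in HKO, and Clu was lower by similar factors of 0.779 and 0.754. Onecut1, Onecut2, Bicc1 and Pkhd1 lay within factors of 0.855 and 1.19 in both libraries. Other duct genes did not all lie in this range. In HKO, Sox9 was at a ratio of 0.638 (interval 0.470 to 0.853), Fgfr3 at 0.705, Rassf9 at 0.619 and Jag1 at 1.56. In Flox, in the same order, the ratios were 1.14, 0.815, 1.02 and 0.864. The protease gene Adamts16 was lower in nuclei with the 3 genes, at 38.4 compared with 132 CPM in Flox and 47.5 compared with 136 CPM in HKO.

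**Figure D5:**
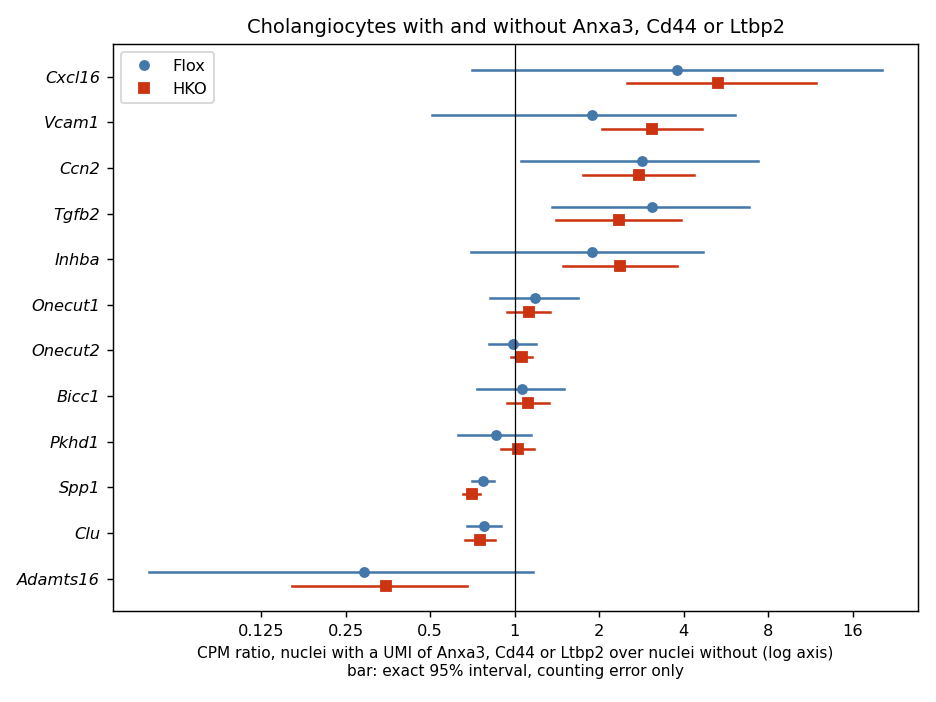
CPM ratio of hepatocyte-poor cholangiocytes with a UMI of Anxa3, Cd44 or Ltbp2 over those without, on a log axis (x), for 12 genes (y) in Flox (circles) and HKO (squares), with exact 95% intervals for counting error. Ccn2 lies at 2.84 and 2.76 and Spp1 at 0.769 and 0.702, while Onecut1, Onecut2, Bicc1 and Pkhd1 lie near 1. Sox9, Fgfr3 and Rassf9, lower in HKO nuclei with such a UMI, and Jag1, higher in them, are not drawn.

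Few cholangiocytes were in the cell cycle. At least 2 UMIs of 18 cell cycle genes were found in 6 of 143 Flox members (4.20%, interval 1.56 to 8.91%) and in 22 of 550 HKO members (4.0%, interval 2.52 to 5.99%), of which 2 HKO nuclei also held 2 or more leukocyte UMIs. Mki67, a marker of proliferating cells, had a UMI in 4 Flox and 8 HKO nuclei, and Top2a, the topoisomerase of dividing cells, in 2 and 9. At these counts a difference in cycling between the libraries was not detectable.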

How the data were processed

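Single-nucleus RNA-seq was deposited for 2 liver pools, 1 Flox and 1 HKO library. The authors aligned 10x 3′ libraries to mm10 (GRCm38) with Cell Ranger 8.0.1, with intronic reads excluded, and deposited whole-number UMI counts per gene and barcode. These matrices were used as deposited, since cells later removed by the study are still in them. Members were selected by the marker rule and UMIs summed per library, with 3 UMIs as the floor. Ratios are of CPM, log2 ratios and the 1.5-fold limit used CPM + 5, genes needed 30 UMIs (20 for gene lists), and exact Poisson, conditional binomial and Clopper-Pearson intervals cover counting error only. The comparison cell types had at most 1 UMI of the 6 cholangiocyte genes and 10 hepatocyte UMIs, 3 of the gene pair of HSCs, endothelium or macrophages, or 2 of Bcl11b. Doublets were not removed in the main values. Scrublet marked 2 Flox and 27 HKO members and their removal is an alternative. TMM factors came from edgeR 4.0.16, other steps from Python 3.11.15 with scipy 1.17.1, and coordinates are from GENCODE M21. Named genes were the rule genes, the 15 strongest markers, the 12 highest and 12 lowest ratios, 5 and 5 genes higher in hepatocytes and the 10 most variable genes. Of each gene list the highest and lowest ratios were named, and genes named beyond that were chosen for their role after their values were seen. The members and gene lists were chosen with earlier results of these data known. The calculations were tested on simulated data. Some genes that these rules name are not reported here.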

Additional observations from a re-analysis of the deposited data

Results flagged for a closer look

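For 8 genes with at least 100 UMIs over both libraries in cholangiocytes and in hepatocytes, the level was at least 1.5-fold lower in HKO cholangiocytes, hepatocyte-poor ones included, and at least 1.5-fold higher in HKO hepatocytes. Of 2629 genes with at least 100 UMIs over both libraries in cholangiocytes, 205 were at least 1.5-fold lower and 289 higher in HKO. How many of them also met the limit in hepatocytes is not given here, so the 8 genes are a description. With 1 library per genotype the difference between the cell types was not tested. On the log2 scale of CPM plus 5, HKO over Flox, Spp1 was at -1.275 in cholangiocytes and 0.80 in hepatocytes, where it went from 9.96 to 21.04 CPM and so remained near background. Atp1b1, the beta subunit of the sodium pump, was at -0.632 and 0.75. The imprinted zinc finger gene Peg3 was at -1.365 and 0.71, with 190 and 70.6 CPM in cholangiocytes and 42.6 and 72.7 CPM in hepatocytes. The tetraspanin Cd9 was at -0.773 and 0.75, with only 1.57 and 6.06 CPM in hepatocytes, also near background, and Tmsb4x, which encodes the actin-binding peptide thymosin beta 4, at -0.658 and 0.75. Mllt3, a reader of histone acylation, was at -0.663 and 0.70. The mitochondrial carrier Slc25a27 was at -0.788 and 0.90, and the solute carrier Slc35g1 at -0.604 and 0.92. In hepatocyte-poor cholangiocytes all 8 remained negative, from -1.418 for Peg3 to -0.597 for Tmsb4x. Other choices of nuclei turned 2 of them. Without the upper limit on UMIs Spp1 was at 0.51 and Atp1b1 at 0.97 in cholangiocytes, and with 2 rule UMIs required Atp1b1 was at 0.035.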

How the results depend on the processing

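Each genotype is 1 library, so these values rest on counting alone and no library could be left out. No paired analysis was possible because each group has 1 sample. The ratio of the cholangiocyte share, 3.36 of all nuclei and 2.22 of non-hepatocyte nuclei, was 2.76 and 1.83 with 2 rule UMIs required, 2.54 and 1.68 with 5, and 1.71 and 1.13 with no upper limit on UMIs. The counts of genes past 1.5-fold, 987 higher and 882 lower, moved with how many genes and counts entered. They were 1792 and 1599 with 10 UMIs required, 289 and 205 with 100, 587 and 515 with a pseudocount of 20 CPM, 396 and 261 after thinning to 500 UMIs, and 585 and 555 with the rule applied after thinning to 1000. The higher count was also 592 with 5 rule UMIs, 645 with at most 3000 UMIs, and 532 among genes at least as high as in hepatocytes, where the lower count was 758. Of 163 named genes, 41 changed sides in at least 1 alternative, in 66 of 2934 values. The setting with the most reversed log2 ratios was that with no upper limit on UMIs, which admits deep nuclei. There the positive values were A230001M10Rik 0.75, Abcb1a 0.74, Abcc1 0.38, Atp1b1 0.97, Bmpr1a 0.10, Cdh1 0.85, Clu 0.053, Col4a1 0.28, Cttnbp2 1.005, Dsg2 0.79, Epcam 0.35, Fgfr1 0.40, Fgfr2 0.84, Glis3 0.88, H2-K1 0.10, Kcnma1 0.83, Lynx1 0.068, Prom1 0.94, Rassf9 0.85, Scara3 0.63, Sctr 0.54, Spp1 0.51, Sqle 0.30, Tgfb2 1.06 and Tspan8 0.61, and the negative ones Errfi1 -0.21, Gdf15 -0.73, Gm29966 -0.52, Mpeg1 -0.18 and Nr1h4 -0.29. With hepatocyte-rich nuclei also left out, an alternative added after the data were seen, the reversed values were Cxcl1 2.51, Gm50136 0.076 and Saa1 0.14. With 2 rule UMIs they were Atp1b1 0.035, Errfi1 -0.26, Esr1 -0.021, Gdf15 -1.21, Gm29966 -0.32, Prom1 0.018, Tbx3 -0.063 and Tgfb2 0.20, with 5 they were Cxcl1 1.71 and Gm50136 0.13, and with at most 3000 UMIs Cd5l -0.23, Cxcl1 2.05, Saa1 0.43 and Tbx3 -0.52. The rule after thinning gave Cxcl1 1.48 and Gdf15 -0.31, no limit on the 7 excluded genes H2-Aa -0.049 and Tbx3 -0.006854, and removal of Scrublet doublets H2-Aa -0.18. The remaining alternatives were also added after the data were seen. Members with 10 or more hepatocyte UMIs left out gave Cxcl1 1.93, Gm50136 0.13, Saa1 0.18 and Tbx3 -0.28, those with 3 or more Cxcl1 1.61, Saa1 0.26 and Tbx3 -0.55, those with 2 or more leukocyte UMIs left out Cd5l -0.12, and thinning of each nucleus to 500 UMIs Bmpr1a 0.003916, Ifit1 1.97, Ifit2 -0.30, Krt7 -1.26, Sctr 0.052 and Slc10a2 -0.33. The cause of these reversals was not tested. Genes with under 30 UMIs in the Flox members are limited by depth.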
